A study of Mus musculus with 16 samples.

Results

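Amino acids, sugars and monocarboxylates such as lactate cross cell membranes through carriers of the SLC families, and the genes of 7 of these families were followed here in mouse germinal centre B cells. Members were all genes in the count table whose symbol begins with Slc1a, Slc2a, Slc3a, Slc7a, Slc16a, Slc38a or Slc43a and a digit, which gave 66 of 49584 listed genes. Of these, 64 are transporters or transporter subunits by name. The other 2 are Slc7a6os, a gene beside Slc7a6, and Slc2a4rg-ps, whose symbol marks a pseudogene of a transcriptional regulator. Enough reads for a test were counted for 36 of the 66.

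Germinal centre B cells were sorted from spleens of C57BL/6J mice at 3 months of age, 8 days after they had been given sheep red blood cells (SRBC) as antigen. Centroblasts, the dividing cells of the dark zone, were B220+ FAS+ CD38- CXCR4+ CD86-, and centrocytes, the cells of the light zone that meet antigen and T cells, were CXCR4- CD86+ by the same first gates. Control mice were Cγ1-cre+/- and mutant mice Ezh2(Y641F)fl/wt;Cγ1-cre+/-, so the Cre allele was present in both genotypes. Ezh2 encodes the histone H3 lysine methyltransferase of Polycomb repressive complex, and Y641F is a lymphoma mutation of its catalytic domain. The Cre is driven from the Cγ1 immunoglobulin locus and acts in activated B cells. Each of the 4 groups had 4 libraries, all labelled with the same litter, and the gene counts do not separate the mutant from the wild-type Ezh2 allele. They are described as biological replicates, and p-values measure the spread between these libraries.

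Glutamine enters lymphocytes mainly through SLC1A5 and the sodium-coupled carriers of SLC38. Large neutral amino acids such as leucine enter through a heterodimer of the heavy chain SLC3A2 (CD98) and a light chain of SLC7, most often SLC7A5, and leave or enter through the uniporters of SLC43. Lysosomal carriers, SLC38A9 among them, report the stores of amino acids inside the lysosome to the kinase complex mTORC1, which drives growth of positively selected germinal centre B cells. Glucose enters through the SLC2 (GLUT) carriers, and lactate and pyruvate cross through SLC16A1 (MCT1).

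The libraries held between 35230563 and 44466911 counted reads. By Y-linked transcripts, the first pair of libraries in each group (1 and 2) was male and the second pair (3 and 4) female. The 12 germinal centre markers summed to between 7982 and 11476 CPM (counts scaled to 1e+06 by the TMM-adjusted library size), and 10 T cell markers to at most 8.6 CPM. The 18 macrophage markers, none of them at 0 in all libraries, summed to between 32.4 and 150.3 CPM in 14 libraries and to 385.4 and 394.1 CPM in mutant centrocyte libraries 3 and 4. In these bulk samples, fewer cells of a type and less RNA per cell cannot be told apart.

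The most abundant carrier transcript per length was Slc1a5, the glutamine exchanger ASCT2, with 85.8 CPM per kilobase of exon as a mean over the 16 libraries. It was followed by the CD98 heavy chain gene Slc3a2 with 29.5 and its leucine-carrying partner Slc7a5 (LAT1) with 25.2 CPM per kilobase. Slc38a10, a little-studied SLC38 member, had 21.6, the glutamine carrier gene Slc38a2 (SNAT2) 18.7, and Slc7a6, a light chain that exchanges arginine for neutral amino acids, 18.4 CPM per kilobase. Slc38a1 (SNAT1), the arginine carrier gene Slc7a1 (CAT1), the lactate carrier gene Slc16a1 and Slc43a3, a carrier of purine nucleobases, completed the top 10 with 17.4, 14.0, 13.2 and 12.7 CPM per kilobase. The most abundant glucose carrier per length was Slc2a1 (GLUT1) with 9.43 CPM per kilobase, and Slc2a3 (GLUT3) had 2.82. Slc1a5 led in each group, while the distance between the next 2 varied. In control centroblasts Slc3a2 had 24.7 and Slc7a5 24.4 CPM per kilobase, and in mutant centrocytes they had 33.2 and 23.0.

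Of the 66 members, 21 averaged at least 10 CPM, 8 lay between 1 and 10 CPM and 37 were under 1 CPM. The 30 members not tested averaged at most 0.17 CPM, and 4 of them (Slc1a6, Slc1a7, Slc38a3 and Slc38a5) had no read in any library. The untested members were 4 of 5 glutamate carriers, 7 of 12 hexose carriers, 7 of 14 monocarboxylate carriers, 6 of 10 light chains, 3 of 7 glutamine and neutral amino acid carriers, 2 of 5 cationic carriers and 1 of 6 other SLC38 genes. Both heavy chains and all 3 SLC43 genes were tested.

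**Figure D1:**
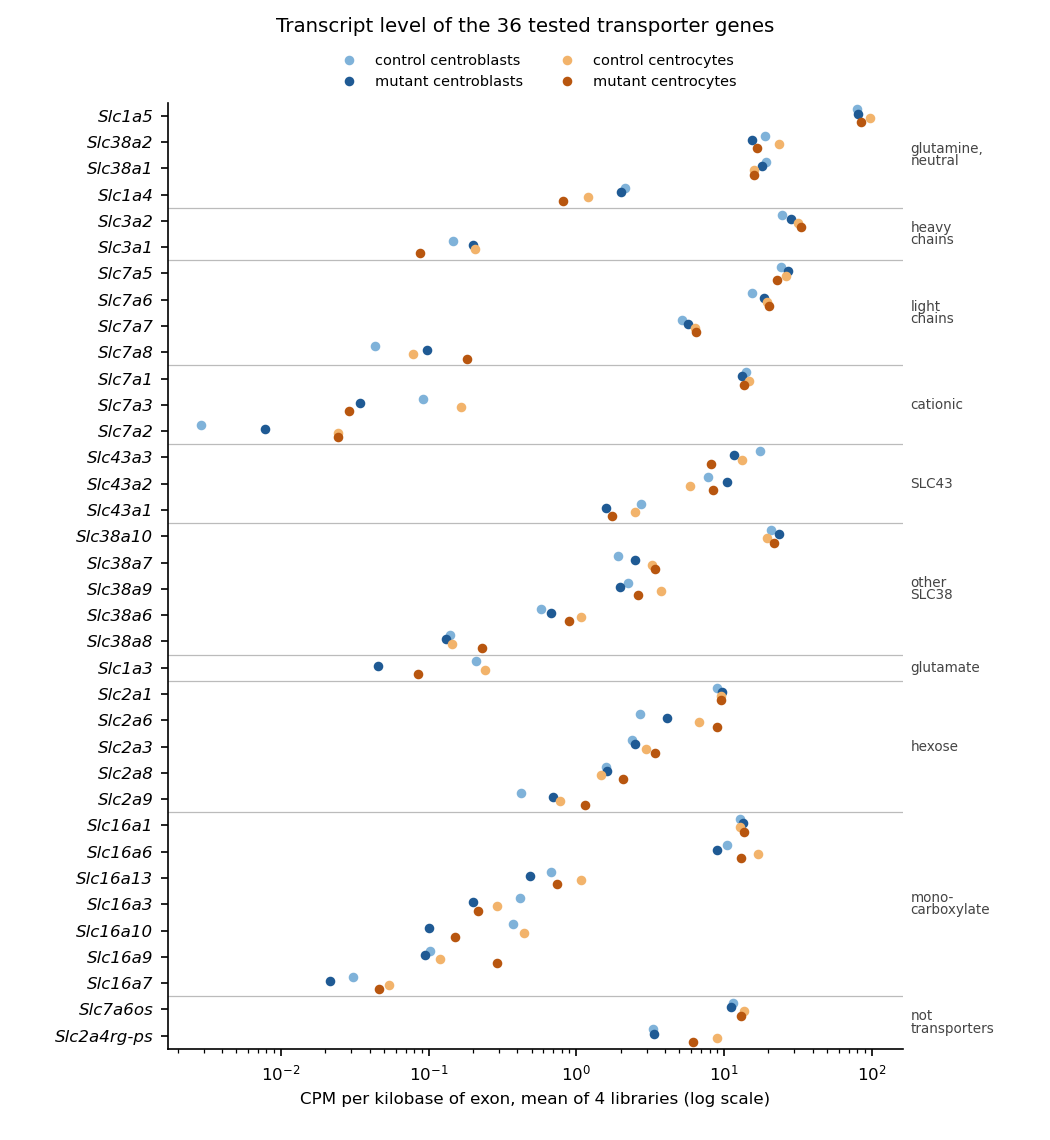
Mean transcript level of the 36 tested members in the 4 groups, in CPM per kilobase of exon on a log scale, ordered by role. Each point is the mean of 4 libraries; Slc1a5 lies highest, and points of 1 gene mostly lie close together beside the range between genes.

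The first question was which carriers differ between the genotypes in dark zone cells. The 3 SLC43 genes moved in opposite directions: Slc43a2 (LAT4), a uniporter of large neutral amino acids, was higher in mutants, while Slc43a1 (LAT3), which carries the same kind of amino acids, and the nucleobase carrier gene Slc43a3 were lower. Slc16a10 (TAT1), a carrier of aromatic amino acids, was lower as well. Of 36 tested members 1 rose and 3 fell, or 2.8% and 8.3%, where 4.06% and 6.4% of all 15240 tested genes did (edgeR quasi-likelihood test, adjusted p under 0.05). Libraries of the 2 genotypes did not overlap for 5 members (13.9%) and for 14.4% of all tested genes. The median log2 fold change was 0.019 over the members and 0.008 over all tested genes, so these shares lay near the background. Correction of each library for GC content and exonic length gave 4 rises and 5 falls (11.1% and 13.9%), beside 7.3% and 9.51% of all tested genes under the same correction.

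In centrocytes, the light zone cells, the same comparison gave 1 rise and 4 falls among 36 members. Slc43a2 rose, and Slc43a3, Slc16a10, Slc38a2 and Slc7a3 (CAT3, a carrier of arginine and lysine) fell. These are 2.8% and 11.1% of the members, beside 7.37% and 9.15% of all tested genes. Genotypes did not overlap for 10 members (27.8%) and for 23.5% of all tested genes, and the median log2 fold change was -0.096 over the members and 0.001 over all. The count of 5 was 8 with DESeq2, with the correction for GC content and length and without control centroblast library 1. It was 11 with sex as a covariate. Of all tested genes, 9.37% rose and 11.1% fell with DESeq2, 12.4% and 12.8% with the correction, and 7.87% and 10.2% with sex. Without control centroblast library 1, 1423 rose and 1665 fell of 15614 tested genes. The 2 genotype comparisons contrast separate libraries, but their tests share 1 estimate of the spread over all 16 libraries. The comparisons may also share their mice. The labels do not state whether same-numbered centroblast and centrocyte libraries come from 1 mouse.

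Slc43a3 lies on chromosome 2 from 84936579 to 84958509 on the plus strand (GRCm38, GENCODE M21). In control centroblasts it stood at 80.8, 79.8, 81.0 and 70.8 CPM in libraries 1 to 4, and in mutant centroblasts at 57.3, 49.0, 44.5 and 57.7 CPM. In centrocytes the controls gave 58.6, 59.8, 63.4 and 55.8 CPM and the mutants 41.3, 36.1, 31.7 and 37.9 CPM. Every mutant library was below every control library of its cell type. The log2 fold change was -0.58 ± 0.11 (SE) in centroblasts (adjusted p = 0.0016) and -0.69 ± 0.11 in centrocytes (adjusted p = 0.000394).

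Slc43a1 is the neighbour of Slc43a3, on the same strand from 84838850 to 84863594, with 72984 bases between the genes. Its control centroblast libraries held 14.0, 11.6, 18.1 and 18.8 CPM and its mutant ones 7.87, 7.48, 8.93 and 11.8 CPM, so that mutant library 4 just reached above control library 2. The log2 fold change was -0.79 ± 0.18 (adjusted p = 0.00828). In centrocytes the controls (13.6, 12.1, 14.6 and 17.3 CPM) all lay above the mutants (10.9, 9.23, 8.58 and 11.3 CPM), with a change of -0.52 ± 0.18 that missed the threshold (adjusted p = 0.056). It passed in several other settings, with an adjusted p from 0.0215 to 0.203 over all of them.

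Slc43a2 lies on chromosome 11 from 75531694 to 75577575 on the plus strand. Control centroblasts held 71.3, 81.3, 76.5 and 86.0 CPM and mutant centroblasts 111, 94.2, 103 and 114 CPM. Control centrocytes held 60.2, 54.3, 63.1 and 60.4 CPM and mutant centrocytes 85.1, 93.3, 66.8 and 92.0 CPM. In both cell types each mutant library was above each control library. The log2 fold change was 0.42 ± 0.11 in centroblasts (adjusted p = 0.0178) and 0.50 ± 0.11 in centrocytes (adjusted p = 0.00472). The centroblast call was lost without control library 1 (adjusted p = 0.0516) or 3 (0.0528) and without mutant library 1 (0.056) or 4 (0.0722). It was also lost with the replicate number as a block (0.0728), though control and mutant libraries of 1 number cannot share a mouse. An antisense gene, Gm45606, shares 922 exonic bases with Slc43a2 and averaged 3.43 CPM, and the counting is not stated to use strand.

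Slc16a10 (chromosome 10, 40033532 to 40142258, minus strand) is a minor transcript: control centroblasts held 2.47, 2.53, 2.03 and 3.87 CPM and mutant centroblasts 0.551, 0.192, 1.37 and 0.854 CPM. Control centrocytes held 3.40, 3.05, 2.65 and 3.86 CPM and mutant centrocytes 0.992, 0.403, 1.52 and 1.5 CPM. No mutant library reached a control library in either cell type. The fall was the largest of a called member in centroblasts, 3.63-fold (log2 fold change -1.86 ± 0.44, adjusted p = 0.0096), and was 2.93-fold in centrocytes (-1.55 ± 0.43, adjusted p = 0.019). In centrocytes the call was lost when control library 4 (adjusted p = 0.0544) or mutant library 2 (0.0537) was left out. Mutant centrocyte libraries 3 and 4, which had the high macrophage markers, also had the higher Slc16a10 values, and without them both the change was -2.20 (adjusted p = 0.0269).

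Slc38a2, whose protein SNAT2 is known to be induced when amino acids run short, is on the minus strand of chromosome 15, from 96687392 to 96699730. Control centrocytes held 180, 220, 220 and 221 CPM, and mutant centrocytes 151, 154, 136 and 152 CPM, with no overlap. The log2 fold change was -0.50 ± 0.10 (adjusted p = 0.00309). In centroblasts the controls (196, 169, 164 and 140 CPM) and the mutants (145, 128, 140 and 133 CPM) overlapped through control library 4, and the change of -0.29 ± 0.10 did not pass (adjusted p = 0.0845), but did without that library (0.0156). Its neighbour Slc38a1, 44478 bases away on the same strand, differed by -0.01 ± 0.12 in centrocytes (adjusted p = 0.966).

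Slc7a3 was near the limit of detection, with 13, 42, 21 and 27 reads in control centrocytes and 5, 1, 8 and 2 in mutant centrocytes. These are 0.348, 1.00, 0.493 and 0.656 CPM against 0.131, 0.0268, 0.23 and 0.0527 CPM, again with no overlap. The log2 fold change was -2.49 ± 0.56 (adjusted p = 0.00549), and -3.10 (adjusted p = 0.00404) without mutant library 3. In centroblasts Slc7a3 had 4, 14, 20 and 16 reads in controls and 5, 7, 5 and 3 in mutants, and the change of -1.41 ± 0.56 did not pass (adjusted p = 0.127).

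**Figure D2:**
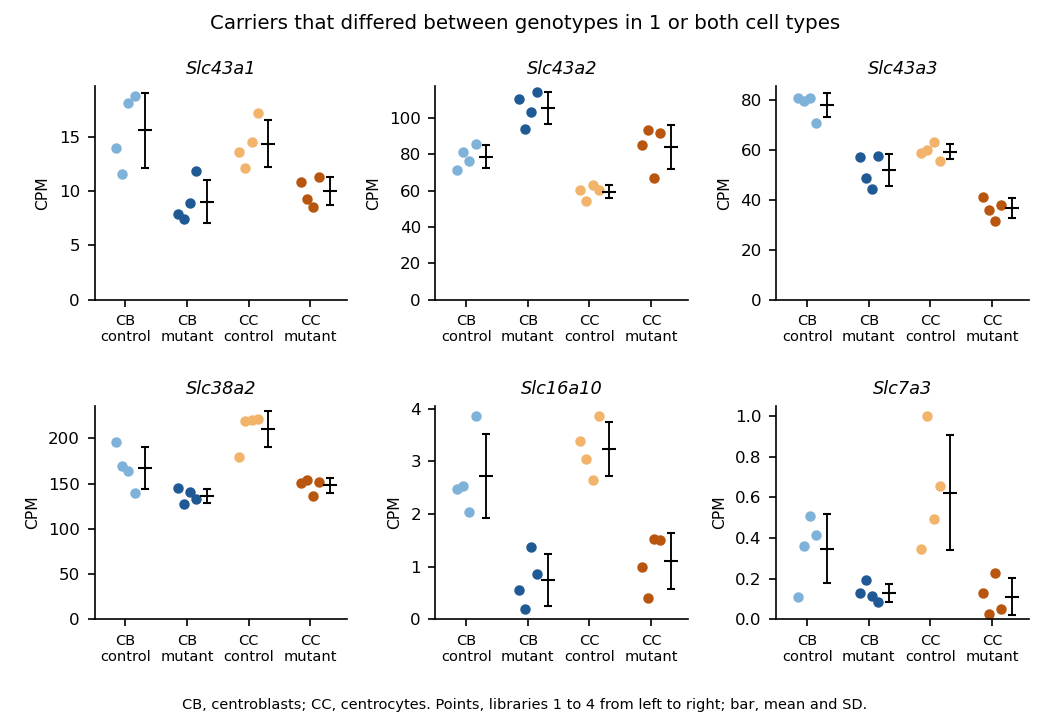
CPM of 6 carriers in each of the 16 libraries, by group, on linear axes that start at 0, with the mean and SD of each group beside its points. Slc43a2 is higher in mutants and the other carriers are lower, and for Slc43a3 and Slc16a10 the mutant points lie below the control points in both cell types.

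To show the sequence context of genes that changed with the mutation of a chromatin enzyme, the promoter letters upstream of 3 of them follow, for which the RefSeq promoter table (GRCm38.p6) has an entry free of annotated UTR. They run 5′ to 3′ on the gene's strand over 240 bases and end 10 bases before the RefSeq start. Capitals mark CpG dinucleotides, the sites of DNA methylation and a feature of the promoters that Polycomb binds. The windows are chr11:75531444-75531683 on the plus strand for Slc43a2, chr10:40142265-40142504 on the minus strand for Slc16a10 and chr15:96699739-96699978 on the minus strand for Slc38a2.
Slc43a2: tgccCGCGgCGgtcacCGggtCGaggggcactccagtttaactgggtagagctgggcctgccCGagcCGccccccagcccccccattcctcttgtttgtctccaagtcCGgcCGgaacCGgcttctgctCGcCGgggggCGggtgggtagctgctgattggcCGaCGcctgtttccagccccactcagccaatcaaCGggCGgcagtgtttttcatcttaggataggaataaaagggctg
Slc16a10: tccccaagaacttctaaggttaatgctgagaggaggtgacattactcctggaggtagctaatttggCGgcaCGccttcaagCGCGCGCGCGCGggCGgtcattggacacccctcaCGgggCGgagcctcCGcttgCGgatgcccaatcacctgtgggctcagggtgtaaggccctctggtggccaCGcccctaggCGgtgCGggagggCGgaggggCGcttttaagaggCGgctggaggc
Slc38a2: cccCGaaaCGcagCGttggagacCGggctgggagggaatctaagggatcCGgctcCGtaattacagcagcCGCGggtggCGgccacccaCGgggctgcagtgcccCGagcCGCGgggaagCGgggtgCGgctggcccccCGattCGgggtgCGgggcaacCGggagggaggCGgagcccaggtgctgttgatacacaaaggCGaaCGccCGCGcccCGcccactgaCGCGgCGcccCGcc
The windows hold 17, 19 and 29 CpG in this order. In the 250 bases before the start, the median was 16 CpG over the 25 tested members in the table, 16 over the 9643 tested genes in it and 6 over all 27025 promoters. The 23 untested members with an entry had a median of 6. So CpG-rich promoters were shared by the expressed carriers and by expressed genes in general. The letters CACGTG, the E-box that MYC binds, which read the same on both strands, were in 3 of the 25 tested member promoters (12%) and in 8.4% of all tested promoters, and in 5 of the 23 untested member promoters (21.7%). The letters TGATGNAA, the core of the element that ATF4 binds, were on either strand of 2 of 48 (4.2%) and of 3.5% of all. A match is a run of letters, and binding was not measured.

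Slc1a5, Slc7a5, Slc3a2 and Slc2a1 did not pass between genotypes in either cell type. Slc1a5 averaged 333 ± 18.5 CPM (SD, n = 4) in control and 339 ± 40.8 CPM in mutant centroblasts, and 404 ± 13.7 and 355 ± 50.1 CPM in centrocytes (log2 fold change -0.19 ± 0.11, adjusted p = 0.249). Slc7a5 differed by 0.14 ± 0.13 in centroblasts and by -0.20 ± 0.13 in centrocytes (adjusted p = 0.567 and 0.323), and its partner Slc3a2 by 0.21 ± 0.12 and 0.07 ± 0.12 (adjusted p = 0.353 and 0.74). Slc2a1 averaged 31.3 ± 7.32 and 34.1 ± 1.98 CPM in control and mutant centroblasts and 33.3 ± 2.83 and 33.5 ± 4.23 CPM in centrocytes (adjusted p = 0.682 and 0.982). A p above the threshold does not show equal levels.

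Slc1a3, a glutamate carrier better known from glia and the only tested one of its kind, was lower in all mutant centroblast libraries (0.184, 0.137, 0.595 and 0.634 CPM) than in controls (0.721, 1.11, 3.33 and 2.04 CPM). The change of -2.20 ± 0.71 did not pass (adjusted p = 0.0577). In centrocytes the controls held 0.401, 1.12, 4.81 and 1.92 CPM and the mutants 0.209, 0.537, 1.00 and 1.13 CPM, which overlapped. Within every group libraries 3 and 4, from females, held more Slc1a3 than libraries 1 and 2, from males, and in centroblasts and mutant centrocytes they also held more macrophage marker RNA. The part of sex or of macrophages in this pattern was not tested. The lactate exporter gene Slc16a3 (MCT4) averaged 2.22 ± 1.36 CPM in control and 1.06 ± 0.218 CPM in mutant centroblasts, with overlap (adjusted p = 0.0831).

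**Figure D3:**
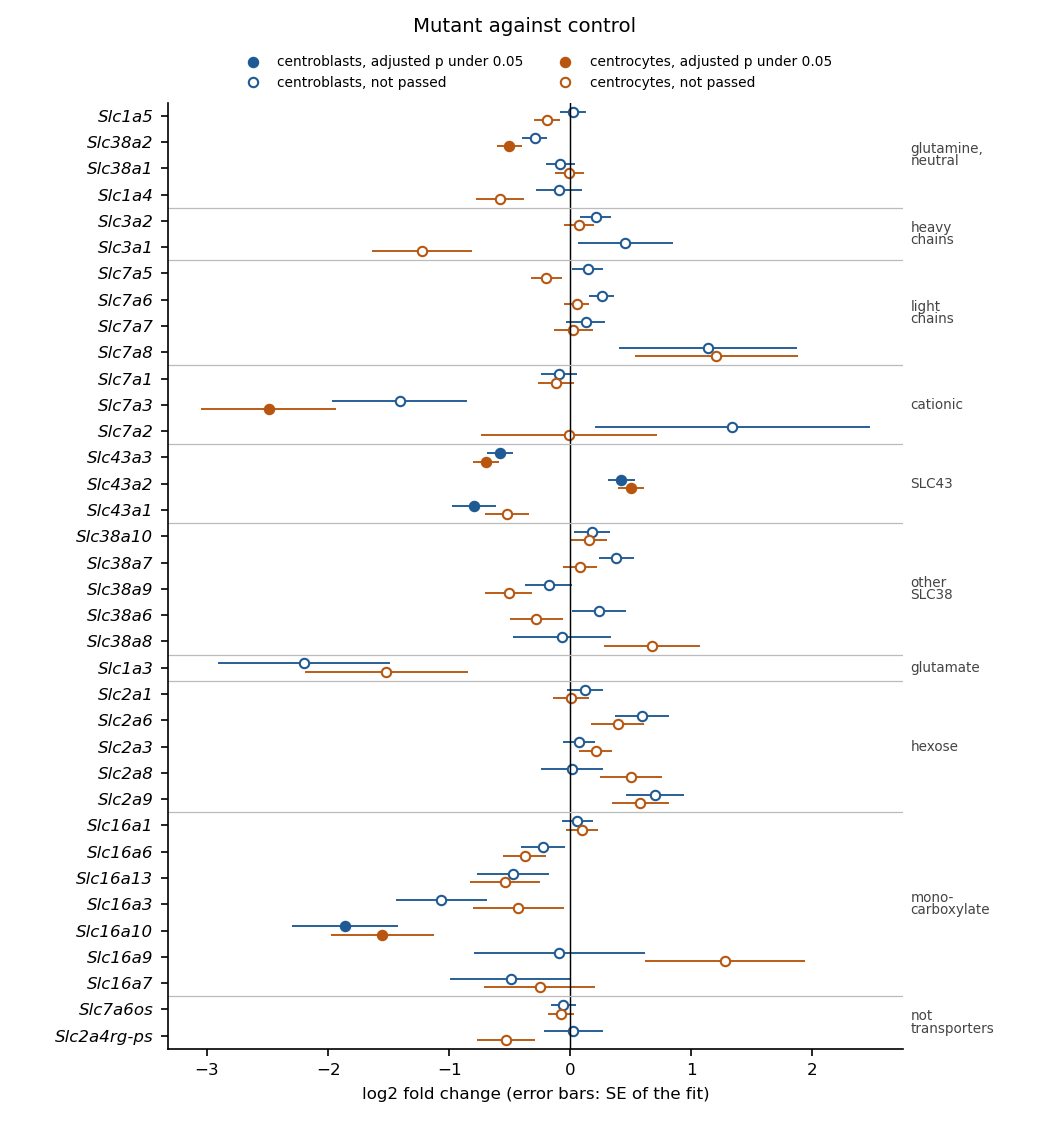
Log2 fold change of mutant against control for the 36 tested members, in centroblasts (blue) and centrocytes (orange), with the SE of the fit as error bars. Filled points passed at an adjusted p under 0.05: 4 in centroblasts and 5 in centrocytes, with Slc43a2 the only filled points to the right of 0.

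The comparison of centrocytes with centroblasts asks how carriers differ between light and dark zone cells. In controls, 3 of 5 tested genes among the other SLC38 members rose in centrocytes, the lysosomal carrier genes Slc38a7 and Slc38a9 and the orphan gene Slc38a6. Of 5 tested hexose carriers 2 rose, the lysosomal carrier gene Slc2a6 (GLUT6) and the urate carrier gene Slc2a9, and the others did not pass. Slc1a4 (ASCT1), a carrier of alanine, serine and cysteine, was lower. Of 36 members 11 rose and 3 fell, or 30.6% and 8.3%, beside 14.9% and 12.9% of all tested genes. Libraries did not overlap for 13 members (36.1%) and for 27.7% of all tested genes, and the median log2 fold change was 0.284 over the members and 0.005 over all. The CPM sums of marker lists named after other cells moved with this comparison. In controls the 9 naive follicular B cell markers summed to 348.1 to 383.7 CPM in centroblasts and 966.7 to 1171.9 CPM in centrocytes. The 8 stromal and follicular dendritic markers summed to 377.1 to 612.6 and 757.7 to 982.2 CPM. Only 2 of these 8 genes had enough reads for a test, so their sum rests on few genes. The list includes Cr2 and Fcgr2b, which are not particular to stromal cells. Whether those reads came from stromal cells or from the B cells was not tested. The sum of the 7 plasma cell markers was lower, with 2167.4 to 2480.7 and 1337.5 to 1563.8 CPM. As single genes, 2 of these 7 were called higher and 2 lower in controls (28.6% each way), with a median log2 fold change of 0.094. In mutants 1 was called higher and 3 lower (14.3% and 42.9%), with a median of -0.41. Mutants gave 339.5 to 478.3 and 953.5 to 1172.4 CPM for the naive markers, 554.9 to 613.7 and 885.9 to 1014.1 CPM for the stromal ones and 2251.6 to 3081.3 and 1416.7 to 1796.8 CPM for the plasma cell ones. The part of such cells in the carrier values was not tested.

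In mutants 5 members rose and 2 fell, or 13.9% and 5.6%, beside 8.92% and 7.07% of all tested genes. Libraries did not overlap for 7 members (19.4%) and for 22.1% of all tested genes, with medians of 0.22 and 0.018. With the replicate number as a block, 8 rose and 3 fell, beside 14.8% and 10.4% of the 14186 genes tested there. With the correction for GC content and exonic length 6 rose and 6 fell, beside 12.1% and 13.2% of all 15240. The count of 7 was 3 without mutant centroblast library 3 or mutant centrocyte library 1, and 4 without mutant centrocyte library 2 or 4. With all libraries, 1360 of 15240 tested genes rose and 1078 fell. These were 1072 and 820 of 15641 without mutant centroblast library 3, and 1049 and 769 of 15606 without mutant centrocyte library 1. Without mutant centrocyte library 2 they were 1119 and 832 of 15623, and without library 4, 1192 and 911 of 15602.

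Among hexose carriers Slc2a6 had the largest rise. Control centroblasts held 5.05, 7.87, 11.2 and 10.8 CPM and control centrocytes 16.1, 19.1, 25.9 and 26.1 CPM, which is a log2 fold change of 1.32 ± 0.23 (adjusted p = 0.000358). Mutant centroblasts held 12.4, 13.9, 10.8 and 15.5 CPM and mutant centrocytes 26.7, 36, 23.3 and 28.4 CPM, or 1.12 ± 0.22 on that scale (adjusted p = 0.00198). Every centrocyte library was above every centroblast library of its genotype. The gene occupies 27021363 to 27027998 of chromosome 2, minus strand.

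Slc2a9 rose from 2.16 ± 0.552 to 3.92 ± 1.22 CPM in controls (0.86 ± 0.24, adjusted p = 0.0139) and from 3.52 ± 0.639 to 5.86 ± 1.04 CPM in mutants (0.74 ± 0.24, adjusted p = 0.0417), without overlap in either genotype. The control call was lost without control centrocyte library 3 (adjusted p = 0.0686). The mutant call was lost in 7 of 16 fits that left out 1 library, with an adjusted p of up to 0.126. Slc2a3, the high-affinity glucose carrier gene, passed in mutants (18.2 ± 2.52 to 24.8 ± 2.72 CPM, 0.45 ± 0.13, adjusted p = 0.0304) and had a change of 0.31 ± 0.13 in controls (adjusted p = 0.098). Its mutant call was lost in 5 of 16 such fits (up to 0.102). For Slc2a1 the changes were 0.09 ± 0.15 and -0.03 ± 0.15 (adjusted p = 0.696 and 0.929), and for Slc2a8, an intracellular hexose carrier gene, -0.13 ± 0.26 and 0.36 ± 0.26 (adjusted p = 0.758 and 0.383).

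The lysosomal glutamine and asparagine exporter gene Slc38a7 held 5.71, 9.27, 8.08 and 8.59 CPM in control centroblasts and 12.0, 14.2, 12.6 and 15 CPM in control centrocytes. Mutant centroblasts held 10.9, 9.70, 9.52 and 11.1 CPM and mutant centrocytes 13.8, 15.4, 12.7 and 14.8 CPM. Neither genotype had overlapping libraries. The changes were 0.76 ± 0.14 (adjusted p = 0.00094) and 0.46 ± 0.14 (adjusted p = 0.0365), and the mutant call was lost in 6 of 16 fits without 1 library (up to 0.0951). The gene occupies 95835920 to 95853539 of chromosome 8, minus strand.

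Slc38a9, whose protein senses lysosomal arginine for mTORC1, rose in controls from 37.4 ± 10.3 to 62.4 ± 11.4 CPM (0.74 ± 0.19, adjusted p = 0.00933). Control centroblast library 1 (51.3 CPM) reached above control centrocyte library 1 (48.0 CPM). In mutants the means were 33.1 ± 2.15 and 43.9 ± 10.7 CPM (0.41 ± 0.19, adjusted p = 0.168), and mutant centrocyte library 4, with 29.8 CPM, was below all mutant centroblast libraries. Slc38a6 rose in controls from 4.47 ± 1.52 to 8.40 ± 1.97 CPM (0.91 ± 0.22, adjusted p = 0.00573), with 0.39 ± 0.22 in mutants (adjusted p = 0.256). With the replicate block the control values of Slc38a9 and Slc38a6 just missed (adjusted p = 0.0512 and 0.0507). Slc38a10, the most abundant of these genes, differed by -0.08 ± 0.15 and -0.11 ± 0.15 (adjusted p = 0.713 and 0.669), and passed as lower in both genotypes after a per-library correction for exonic length and GC content (0.00427 and 0.0151).

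Slc1a4 was the member with the largest fall from centroblasts to centrocytes. Control centroblasts held 8.01, 8.80, 6.43 and 10.5 CPM and control centrocytes 4.04, 4.17, 4.27 and 6.49 CPM, for a log2 fold change of -0.83 ± 0.20 (adjusted p = 0.00452). Mutant centroblasts held 7.24, 6.16, 8.47 and 9.75 CPM and mutant centrocytes 2.82, 2.93, 3.44 and 3.53 CPM, for a log2 fold change of -1.31 ± 0.20 (adjusted p = 0.000188). In mutants the cell types did not overlap, while in controls centrocyte library 4 reached above centroblast library 3. Its paralogue Slc1a5 went the other way in controls, from 333 ± 18.5 to 404 ± 13.7 CPM without overlap, but the change of 0.28 ± 0.11 did not pass (adjusted p = 0.0647). In some other settings it did, with an adjusted p from 0.0415 to 0.797 over all of them.

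Slc43a3 and Slc43a2, which differed between genotypes, also differed between cell types. Slc43a3 was lower in centrocytes of both genotypes (-0.39 ± 0.11, adjusted p = 0.011, in controls and -0.50 ± 0.11, adjusted p = 0.00345, in mutants), with no overlap. Slc43a2 was lower in control centrocytes (-0.41 ± 0.11, adjusted p = 0.0108), and in mutants its change of -0.33 ± 0.11 lay at the threshold (adjusted p = 0.0506). This mutant change passed in several other settings, with an adjusted p from 0.000123 to 0.223 over all of them. These comparisons share the libraries of the genotype comparisons, so the values stand side by side only. For Slc43a3 the group means ran from 78.1 ± 4.88 CPM in control centroblasts through 59.4 ± 3.15 in control centrocytes and 52.1 ± 6.48 in mutant centroblasts to 36.7 ± 4.02 CPM in mutant centrocytes, and the libraries of the middle 2 groups overlapped. For Slc43a2 the order was mutant centroblasts (106 ± 8.92 CPM), mutant centrocytes (84.3 ± 12.2), control centroblasts (78.8 ± 6.31) and control centrocytes (59.5 ± 3.72), where the middle 2 overlapped.

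Slc38a2, Slc3a2 and Slc7a6 were also called higher in control centrocytes. Slc38a2 rose by 0.33 ± 0.10 (adjusted p = 0.024), Slc3a2 by 0.35 ± 0.13 (adjusted p = 0.0439) and Slc7a6 by 0.32 ± 0.10 (adjusted p = 0.0302). In mutants the same genes had changes of 0.12 ± 0.10, 0.21 ± 0.12 and 0.11 ± 0.10, none of which passed. The 3 control calls were lost in 5, 12 and 6 of 16 fits that left out 1 library, with an adjusted p of up to 0.0752, 0.138 and 0.0946, and all 3 with the replicate block (0.135, 0.0827 and 0.0642). The LAT1 gene Slc7a5 averaged 90.7 ± 10.1 and 97.8 ± 9.07 CPM in control and 100 ± 12.6 and 85.4 ± 14.2 CPM in mutant centroblasts and centrocytes (adjusted p = 0.567 and 0.255). In mutants it passed as lower after the correction for GC content and length (-0.36, adjusted p = 0.0159).

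Slc16a6 (MCT7), a carrier of ketone bodies, rose in control centrocytes from 51.6 ± 16.4 to 82.6 ± 16.2 CPM (0.68 ± 0.18, adjusted p = 0.0101), without overlap. With the compared groups alone its adjusted p was 0.053. In mutants the means were 44.2 ± 4.67 and 63.6 ± 2.11 CPM (0.53 ± 0.18, adjusted p = 0.0577), again without overlap. That mutant change passed in several other settings, with an adjusted p from 0.000406 to 0.1425 over all of them. The gene shares 1052 exonic bases with Amz2 on the opposite strand, which averaged 156 CPM and fell by 0.93 and 0.88 in controls and mutants, so reads of the shared bases cannot be told apart. Slc16a1 differed by -0.01 ± 0.13 and 0.03 ± 0.13 (adjusted p = 0.964 and 0.923).

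At the low end, the arginine carrier gene Slc7a2 was called higher in control centrocytes on 1, 1, 0 and 2 reads in centroblasts and 4, 16, 6 and 11 reads in centrocytes (2.96 ± 0.98, adjusted p = 0.0324). The call was lost in 5 of 16 fits without 1 library (up to 0.0943). Slc2a4rg-ps, which is no transporter, rose from 9.80 ± 2.61 to 26.7 ± 5.98 CPM in controls (1.45 ± 0.25, adjusted p = 0.000345) and from 9.97 ± 1.49 to 18.5 ± 5.66 CPM in mutants (0.89 ± 0.24, adjusted p = 0.0181). Its mutant call was lost in 3 of 16 such fits (up to 0.0603).

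**Figure D4:**
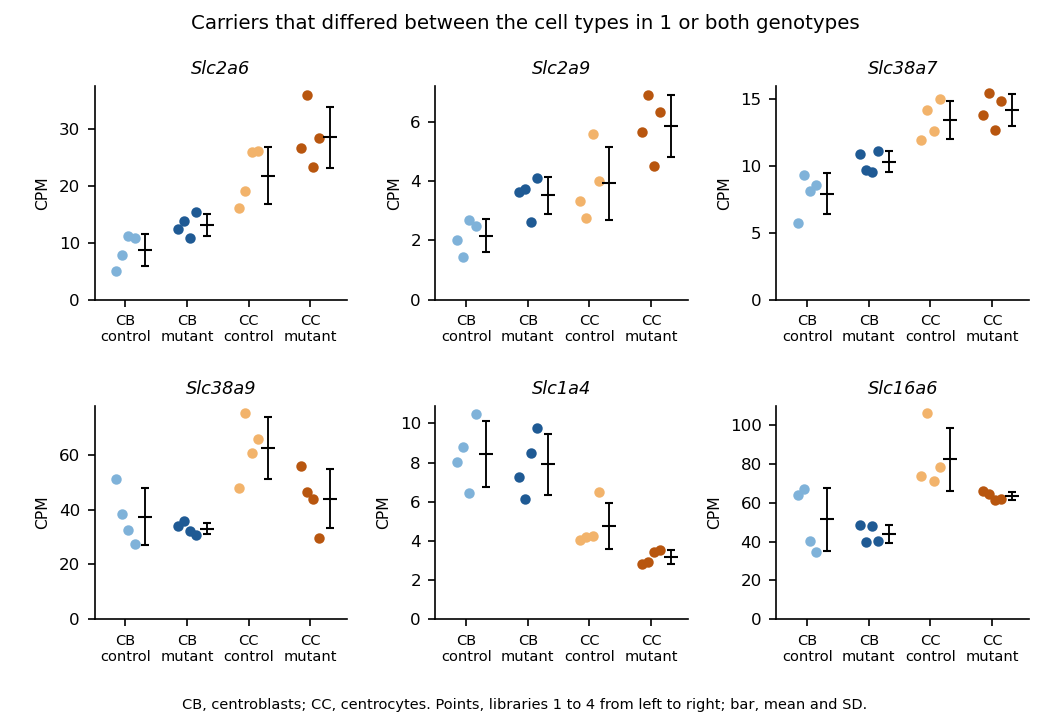
CPM of 6 carriers in each of the 16 libraries, by group, on linear axes that start at 0, with the mean and SD of each group beside its points. Slc2a6, Slc2a9 and Slc38a7 are higher in centrocytes of both genotypes without overlap, Slc1a4 is lower, and Slc38a9 overlaps between cell types in both genotypes.

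**Figure D5:**
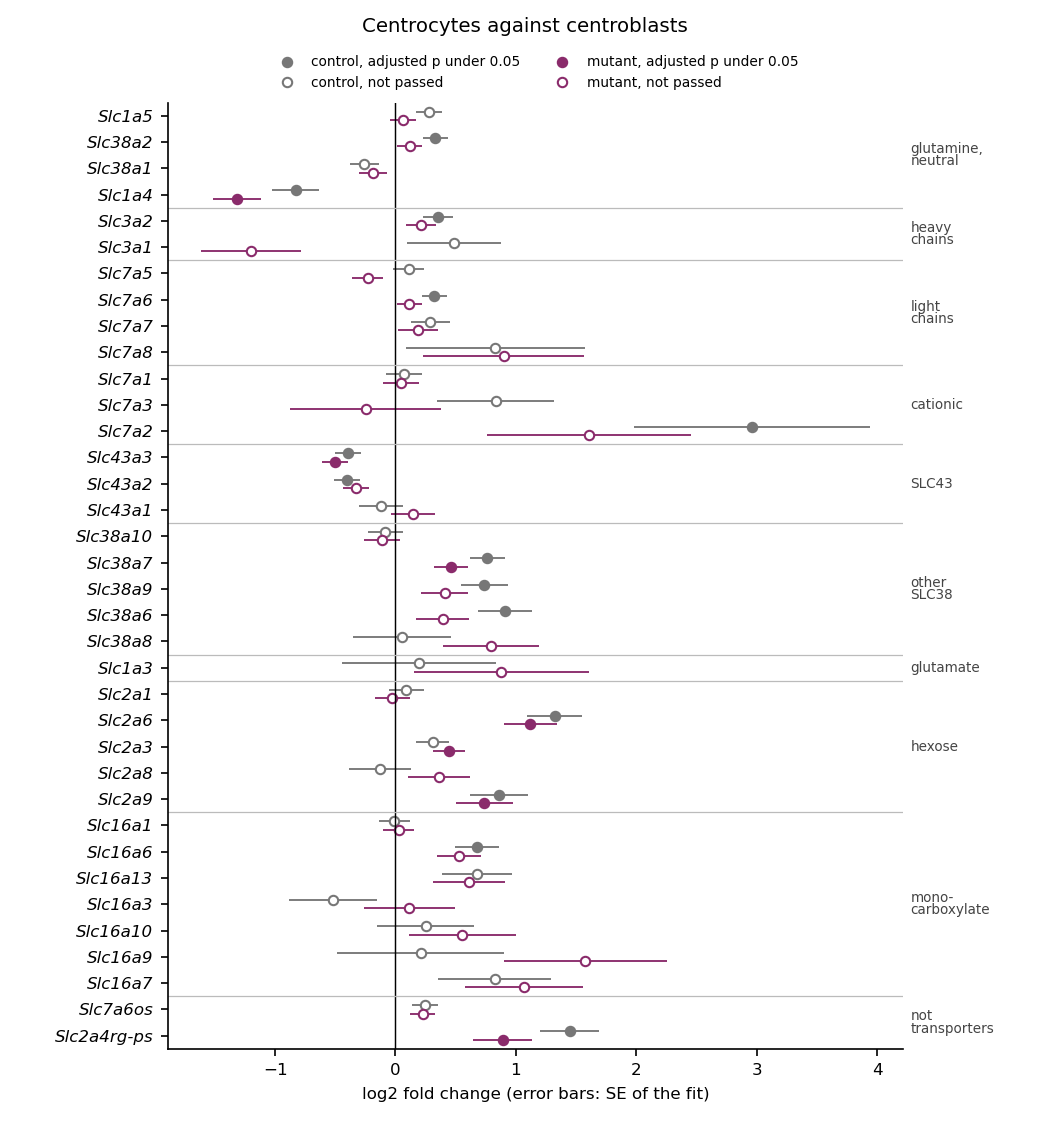
Log2 fold change of centrocytes against centroblasts for the 36 tested members, in controls (grey) and mutants (purple), with the SE of the fit as error bars. Filled points passed at an adjusted p under 0.05: 14 in controls, of which 11 lie to the right of 0, and 7 in mutants, of which 5 do.

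Whether the genotype effect differed between cell types was tested by the interaction of genotype and cell type. No member passed, and of all 15240 tested genes 0% did (edgeR, smallest member adjusted p = 0.999). At an unadjusted p under 0.05 there were 1 member and 429 of all tested genes, and DESeq2 called 0 members. That member was the heavy chain gene Slc3a1, at 0.363 CPM as a mean, with an interaction of -1.68 ± 0.57. So calls made in 1 cell type or genotype alone, such as that of Slc38a2 in centrocytes, are not shown to differ from the other.

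Genes around the carriers were described with 4 lists. Of 34 genes of mTORC1 and its amino acid sensors, 1 rose and 3 fell in mutant centroblasts and 2 rose and 2 fell in mutant centrocytes. The leucine sensor gene Sesn1 (sestrin) fell by 0.99 ± 0.11 and 0.93 ± 0.11 on the log2 scale (adjusted p = 3.4e-05 and 5.1e-05), from 30.4 ± 2.34 to 15.3 ± 1.38 CPM in centroblasts and from 44.2 ± 5.10 to 23.1 ± 2.35 CPM in centrocytes. Tsc1, a brake on mTORC1, fell by 0.53 ± 0.11 and 0.56 ± 0.11. Wdr59, a subunit of the GATOR2 complex, rose in both cell types (0.46 ± 0.11 and 0.39 ± 0.11). The calls were 2.94% and 8.82% of the list in centroblasts and 5.88% each way in centrocytes, where 4.06% and 6.4%, and 7.37% and 9.15%, of all tested genes rose and fell. The list's median log2 fold change was 0.096 and 0.131, beside 0.008 and 0.001 over all tested genes.

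Of 16 tested partners and regulators of carriers, 2 rose and 1 fell in mutant centroblasts and 3 rose and 2 fell in mutant centrocytes, with medians of -0.006 and 0.094. The shares were 12.5% and 6.25% in centroblasts, beside 4.06% and 6.4% of all tested genes, and 18.8% and 12.5% in centrocytes, beside 7.37% and 9.15%. Emb (embigin), the chaperone that brings monocarboxylate carriers to the membrane, held 18.5, 18.4, 14.4 and 15 CPM in control and 3.96, 4.11, 5.54 and 6.03 CPM in mutant centroblasts (-1.75 ± 0.20, adjusted p = 3.3e-05). In centrocytes it held 9.01, 10.4, 9.79 and 11.1 CPM in controls and 3.21, 2.87, 3.59 and 5.66 CPM in mutants (-1.39 ± 0.20, adjusted p = 0.000222). The genotypes did not overlap. Txnip, which draws glucose carriers off the membrane, rose in mutant centrocytes (0.41 ± 0.11, adjusted p = 0.0166). From centroblasts to centrocytes 4 of these 16 rose and 5 fell in controls, and 2 rose and 2 fell in mutants. That is 25% and 31.2%, and 12.5% each way, beside 14.9% and 12.9%, and 8.92% and 7.07%, of all tested genes. The medians were -0.155 and 0.011. Among those that rose, Myc, a driver of carrier genes in activated lymphocytes, was higher in centrocytes of controls (24.7 ± 6.65 to 68.5 ± 8.43 CPM, adjusted p = 4.6e-05) and mutants (29.1 ± 5.37 to 61.6 ± 13.3 CPM).

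Of 22 tested genes of the ATF4 response to amino acid shortage, 1 rose and 11 fell from centroblasts to centrocytes in controls and 1 rose and 10 fell in mutants, with medians of -0.328 and -0.342 beside 0.005 and 0.018 over all tested genes. The shares that fell were 50% and 45.5%, beside 12.9% and 7.07% of all tested genes, and 4.55% rose in each, beside 14.9% and 8.92%. Chac1, a glutathione-degrading enzyme, fell by 1.34 ± 0.31 and 1.54 ± 0.32, the pseudokinase gene Trib3 by 1.14 ± 0.28 and 1.59 ± 0.28, and the asparagine synthetase gene Asns by 0.53 ± 0.18 and 0.64 ± 0.18. The gene that rose was Ddit4 (REDD1), an mTORC1 inhibitor that is also induced by other stresses (1.44 ± 0.17 and 1.69 ± 0.17). Between genotypes 3 rose and 1 fell in centroblasts and 4 rose and none fell in centrocytes, which is 13.6% and 4.55%, and 18.2% and 0%, beside the 4.06% and 6.4%, and 7.37% and 9.15%, of all tested genes. The medians were 0.186 and 0.148. Eif4ebp1, a translation repressor controlled by mTORC1, rose by 0.93 ± 0.14 and 1.05 ± 0.14, and Ddit4 by 0.59 ± 0.17 and 0.84 ± 0.17.

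Of 17 tested genes of the first steps of glucose and glutamine use, 2 rose and 1 fell in mutant centroblasts and 2 rose and 3 fell in mutant centrocytes. That is 11.8% and 5.88%, and 11.8% and 17.6%, beside 4.06% and 6.4%, and 7.37% and 9.15%, of all tested genes, with medians of 0.049 and 0.215. The glutamine synthetase gene Glul fell in both (-0.63 ± 0.087 and -0.36 ± 0.087), and the hexokinase gene Hk2 rose in centroblasts (0.44 ± 0.13, adjusted p = 0.0446). Between cell types 2 rose and 5 fell in controls and 1 rose and 3 fell in mutants, or 11.8% and 29.4%, and 5.88% and 17.6%. All tested genes gave 14.9% and 12.9%, and 8.92% and 7.07%, and the list's medians were -0.072 and -0.011. Glul was lower in centrocytes of both genotypes (-0.76 ± 0.088 and -0.50 ± 0.087), and Hk2 rose in controls (0.54 ± 0.13).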

How the data were processed

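RNA of sorted centroblasts and centrocytes was sequenced in 16 libraries. The authors deposited whole-number read counts per gene symbol, not normalized. The submitters' processing notes name Trim Galore, cutadapt, STAR 2.5.3a (build mm10), Subread and featureCounts 1.4.5-p1. Strand and annotation are not given in the sources used here. The naive B cells of the design text were not analysed here. No molecular identifiers are stated, so reads may repeat molecules and read depth alone understates the error.

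The counts went into edgeR 4.0.16 under R 4.3.3: filterByExpr by group (15240 genes), TMM factors and the quasi-likelihood test on 1 mean per group over all 16 libraries (12 residual degrees of freedom). Tests were 2-sided, and p-values were adjusted by Benjamini-Hochberg over all tested genes with a threshold of 0.05. CPM are counts scaled to 1e+06 after TMM adjustment, given as mean ± SD (n = 4) or per library. Levels between genes are per kilobase of union exon length from GENCODE M21, matched by symbol, which covered 14774 tested genes (96.9%). The procedure was tested on simulated counts. DESeq2 1.42.0 and other settings were alternatives.

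Named were all 18 members called in at least 1 comparison and the 10 with the highest level per kilobase, 24 in all. Some others, such as Slc2a1, Slc1a3, Slc16a3, Slc2a8 and Slc3a1, and genes of the lists were named after their values were seen. Members and lists were chosen with earlier results of these data known. The list genes Castor1, Castor2 and Samtor were not matched by symbol and were not used here.

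The replicate block was fitted in all comparisons, though the labels do not state that same-numbered libraries share a mouse. In mutants the deviations of the 4 same-numbered pairs of cell types from their group means had correlations from 0.263 to 0.327 across genes. The highest correlations with another number were 0.286 and 0.325, and 1 of the 4 pairs was the best match. These values do not single out a pairing by number. The control pairs had -0.006, 0.395, 0.452 and 0.134. Control and mutant libraries cannot share a mouse, so between genotypes the block groups libraries by number alone. The main tests used no pairing. If cell types of 1 number do share a mouse, the main tests between cell types ignore it. Promoter letters were taken from the RefSeq table for 48 of 66 members.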

Additional observations from a re-analysis of the deposited data

Results flagged for a closer look

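In 6 of 96 tested sets of 4 libraries (24 named members in 4 groups), 1 library stood apart by Dixon's criterion, where chance gives about 1 in 20. Slc1a4 stood at 6.49 CPM in control centrocyte library 4 and between 4.04 and 4.27 CPM in the other 3. Slc2a3 stood at 13.4 CPM in control centroblast library 4, with the others from 18.1 to 18.9 CPM. Slc43a3 was lowest in the same library, at 70.8 CPM, with the others from 79.8 to 81.0 CPM. Slc38a2 stood at 180.0 CPM in control centrocyte library 1 and between 220 and 221 CPM in the others. Slc3a2 stood at 98.3 CPM in control centrocyte library 2 and between 115 and 118 CPM in the others. Slc2a4rg-ps stood at 10.1 CPM in mutant centrocyte library 4 and between 20.3 and 22.4 CPM in the others.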

How the results depend on the processing

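Of 30 calls of a named gene in a comparison, 16 held in all alternatives that tested the gene and 19 whichever library was left out, and none reversed. Slc7a3, under 1 CPM on average, was not tested in the setting that kept genes with a mean of at least 1 CPM. Calls kept throughout were those of Slc43a3 in 4 comparisons, Slc43a1 and Slc16a10 between genotypes in centroblasts, Slc43a2, Slc38a2 and Slc7a3 between genotypes in centrocytes, Slc1a4 and Slc2a6 between cell types in both genotypes, and Slc43a2, Slc38a7 and Slc2a4rg-ps between cell types in controls. Of the other results, 19 passed in some alternative. The counts of called members were 4 and 5 between genotypes in centroblasts and centrocytes, and 14 and 7 between cell types in controls and mutants. DESeq2 gave 7 and 8 between genotypes, where 5.59% and 7.82%, and 9.37% and 11.1%, of all tested genes rose and fell. The offset for GC content and length gave 9, 8 and, between cell types in mutants, 12. All tested genes gave 7.3% and 9.51%, 12.4% and 12.8%, and 12.1% and 13.2% with it. Together with the replicate block the offset gave 7 in centroblasts and 13 between cell types in mutants. All tested genes gave 6.17% and 7.58%, and 15.4% and 16.7%, there. Sex as a covariate gave 11 between genotypes in centrocytes, beside 7.87% and 10.2% of all tested genes. The replicate block alone gave 9 between cell types in controls and 11 in mutants, where Slc16a6, Slc16a9, Slc38a9 and Slc43a2 joined. It gave 13.1% and 9.6%, and 14.8% and 10.4%, of all tested genes. Leaving out 1 library gave 3 to 5, 4 to 8, 10 to 15 and 3 to 10 calls in the order above, with 8 in centrocytes without control centroblast library 1, and 0 for the interaction. Without mutant centrocyte libraries 3 and 4 the counts were 4, 5, 14 and 6. Of all tested genes 3.64% and 6.21%, 3.09% and 4.55%, 14.1% and 12.7%, and 7.28% and 4.54% rose and fell there. The causes of these shifts were not tested, except that blocked fits used only the compared libraries. Members under 1 CPM rest on few reads, and small changes there were not detectable at this depth.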

Other observations

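The minor carriers Slc7a8 and Slc16a9 were higher in libraries 3 and 4 (females) than in 1 and 2 (males), Slc7a8 in every group and Slc16a9 in all but control centrocytes. Slc7a8 (LAT2), a light chain of CD98, held 0.0555, 0.0774, 0.381 and 0.361 CPM in control centroblasts and 0.236, 0.164, 0.801 and 0.744 CPM in mutant centroblasts. In mutant centrocytes it held 0.653, 0.161, 0.976 and 1.87 CPM, highest in the 2 libraries with the most macrophage marker RNA. In control centrocytes it held 0.187, 0.215, 0.634 and 0.535 CPM, where the macrophage markers summed to 88.9, 150.3, 107.0 and 119.6 CPM. Slc16a9 (MCT9), a carnitine carrier, held 0.496, 0.295, 1.95 and 1.74 CPM in mutant centrocytes and 0.0787, 0.11, 0.71 and 0.579 CPM in mutant centroblasts. Control centroblasts held 0.250, 0.129, 0.508 and 0.697 CPM, while control centrocytes, at 0.722, 0.262, 0.399 and 0.462 CPM, showed no such split. The part of sex or of macrophage RNA in these values was not tested.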
